A study of Mus musculus with 12 samples.

Results

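Activity and stress induced transcription genes were followed in cortical neurons of mice given nicotine or saline. The 6 genes, Npas4, Fosl1, Rela, Nfkbiz, Cebpd and Socs1, were taken by name from the 35129 gene entries of the fragment count table. All 6 had an entry, and 5 of the 6 had a count in at least 1 library. The cells came from 2 mouse lines, each with a saline and a nicotine group. GIN mice, on an FVB background, carry eGFP in part of the somatostatin interneurons (Sst-neurons), and YFPH mice, on a B6 background, carry YFP in pyramidal neurons of layer V (Thy1-neurons). Cell type, transgene and strain therefore cannot be told apart. All mice were male, weighed 20 g and were 5 to 7 weeks old, and each carried a subcutaneous osmotic mini pump with saline (Sst, Thy1) or nicotine hydrogen tartrate at 48 mg/kg/d (Sst+Nic, Thy1+Nic) for 14 days. Slices of every group were held and digested with pronase in the presence of APV, DNQX and TTX, which block glutamate receptors and action potentials, before fluorescent cells were aspirated by hand in aliquots of 10. Of 12 libraries, each from another mouse, 10 were analysed here: 3 of Sst, 2 of Sst+Nic, 2 of Thy1 and 3 of Thy1+Nic.

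Immediate early genes are transcribed within minutes of a stimulus without the need for new protein, and in neurons calcium entry and CREB drive many of them. NF-kappaB dimers wait in the cytoplasm, bound by inhibitors, and enter the nucleus after cytokine or stress signals, where they switch on inflammatory genes and their own inhibitors. Cytokines that act through JAK kinases and STAT factors induce SOCS proteins, which shut the same receptors down.

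Totals ranged from 2915738 to 4878326 fragments per library, so that a count of 0, read as up to 3 counts, allowed 0.615 to 1.03 CPM (the count divided by the total of its library, times 1e6). Such limits, and the 95% Wilson intervals below, cover counting error only. The counts could be tied to their gene names only in stretches of chromosomes 7, 8, 16 and 19, which hold 891 entries called checked entries here. All 6 genes lay in them. None of the 6 was among the genes whose counts were compared with the study's own group values to find these stretches. That comparison used only Sst and Thy1+Nic, the groups with all 3 libraries. Other genes are named only from the checked entries. A mean above 1 CPM was found for 61.8% of these entries and for 26.7% of entries elsewhere, so that shares over the whole table, given below as background, rest on counts whose names were mostly not checked. The Sst transcript, which defines the interneurons, was at 53779 to 126088 CPM in the 5 Sst and Sst+Nic libraries. In the 5 Thy1 and Thy1+Nic libraries it was at 1.15 to 49.2 CPM, apart from 3795 in Thy1 replicate 3. The main fold changes and permuted differences of Npas4, Rela, Nfkbiz, Bcl6 and Bach1 that rest on that library are therefore also given without it. Group means, correlations and measures of spread are given only with it. No marker on the list for pyramidal neurons, astrocytes, oligodendrocytes or red blood cells lay in the checked stretches.

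RefSeq (GRCm38.p6) gave a promoter sequence, from 250 bases before a start site, for 3 of the 6 genes. The windows are shown because they hold, in these genes, the letters that the pathways above are known to read. Capitals mark the matches, and both strands were searched.
Npas4: cgttcgaCGTCAcgggaTGACGtcggaag
Rela: agcaggcctGGGCCTCTCCCtgcgcaggg
Socs1: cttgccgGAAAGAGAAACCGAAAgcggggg
The Npas4 window (chr19:4990129-4990157, minus strand) lies at positions -186 to -158 from the RefSeq start used and inside the gene as GENCODE annotates it (4984355 to 4990316). It holds both matches of the promoter to TGACG, the half-site of a cyclic AMP response element, 1 on each strand. Of 32851 mouse promoters of the same length, 20.8% hold TGACG. The Socs1 window (chr16:10785597-10785626, minus strand) holds 2 overlapping matches to GAAA, any 2 bases, GAAA, the core of an interferon-stimulated response element, which 3.44% of promoters hold. The Rela window (chr19:5637314-5637342, plus strand) shows 2 of 4 matches to GGG, any 5 bases, CC, which overlap on opposite strands. This is a loose form of the kappaB site, and 50.8% of promoters hold it. The Socs1 promoter holds 3 such matches and the Npas4 promoter 1, outside the windows shown. A match describes the letters alone.

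Npas4 encodes a transcription factor that neurons induce on calcium entry and that shapes inhibitory synapses. It was the member with the highest mean level, 46.3 CPM over 10 libraries, and had counts in all 10. It lies on chromosome 19 (4984353 to 5003439 in RefSeq, minus strand). Among the 677 checked entries with a count, 58.2% had a lower mean level. In Sst, Npas4 was at 18.6, 42.1 and 46.2 CPM in replicates 1, 2 and 3 (75, 165 and 171 fragments). In Sst+Nic it was at 32.2 and 50.6 CPM in replicates 2 and 3. One of these lay inside the Sst range and one above it, so the groups overlapped. In Thy1 it was at 111 CPM in replicate 2 (95% Wilson interval 101 to 123) and at 54.9 in replicate 3 (47.8 to 63.1). In Thy1+Nic it was at 27.9, 54.1 and 25.3 CPM in replicates 1, 2 and 3. Both Thy1 libraries were thus higher than every Sst and Thy1+Nic library, the last by a gap of under 1 CPM.

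By group, Npas4 averaged 35.6 ± 14.8 CPM in Sst (SD, n = 3), 35.8 ± 15.9 in Thy1+Nic (SD, n = 3), 41.4 ± 13.0 for Sst+Nic (SD, n = 2) and 83.2 ± 40.0 for Thy1 (SD, n = 2). In this order of levels the 3 lower groups did not differ beyond their spread. The test was the quasi-likelihood F test of edgeR, fitted to the whole table, and a gene was called if its log2 fold change was beyond 1 in size with a Benjamini-Hochberg adjusted p under 0.05. Between Sst and Thy1 the log2 fold change of Npas4 was -1.33 (standard error 0.58) and was not called (adjusted p = 0.324, edgeR). Without Thy1 replicate 3 it was -1.69 (standard error 0.71), and without Thy1 replicate 2 it was -0.89 (standard error 0.79). DESeq2 and limma voom gave -1.37 and -1.39, with adjusted p of 0.216 and 0.222. Between Thy1+Nic and Thy1 it was -1.05 (standard error 0.54, adjusted p = 1.00, edgeR), and -1.37 without Thy1 replicate 3 and -0.55 without Thy1 replicate 2. Both comparisons share the Thy1 libraries, so their values are not independent of each other. The absence of overlap between Thy1+Nic and Thy1 held for CPM and was lost when totals were scaled by TMM, set to uniquely mapped reads or taken without mitochondrially encoded genes.

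In Sst-neurons the log2 fold change of Npas4 with nicotine was -0.015 (standard error 0.66), and its sign turned under 4 alternatives that kept all libraries. The difference between the cell types in the effect of nicotine, tested as an interaction, was 1.02 (standard error 0.88, adjusted p = 0.862, edgeR), and 1.39 without Thy1 replicate 3. With each library left out in turn, this difference ranged from 0.50 to 1.55. Over both cell types, nicotine libraries lay 20.8 CPM below saline libraries when the groups were compared within cell type (two-sided exact permutation test over 100 arrangements, p = 0.23, adjusted p = 0.625 over 10 tests). Over both treatments, Sst-neurons lay 21.0 CPM below Thy1-neurons (exact permutation test, p = 0.25, adjusted p = 0.625). With mitochondrially encoded genes left out of the totals these differences were -31.5 and -41.9 CPM (exact permutation test, p = 0.21 and 0.06, adjusted p = 0.65 and 0.6), and the second was -30.1 with TMM (exact permutation test, p = 0.1, adjusted p = 0.65). Without Thy1 replicate 3 they were -34.9 and -35.1, and without Thy1 replicate 2 they were -6.65 and -6.82.

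**Figure D1:**
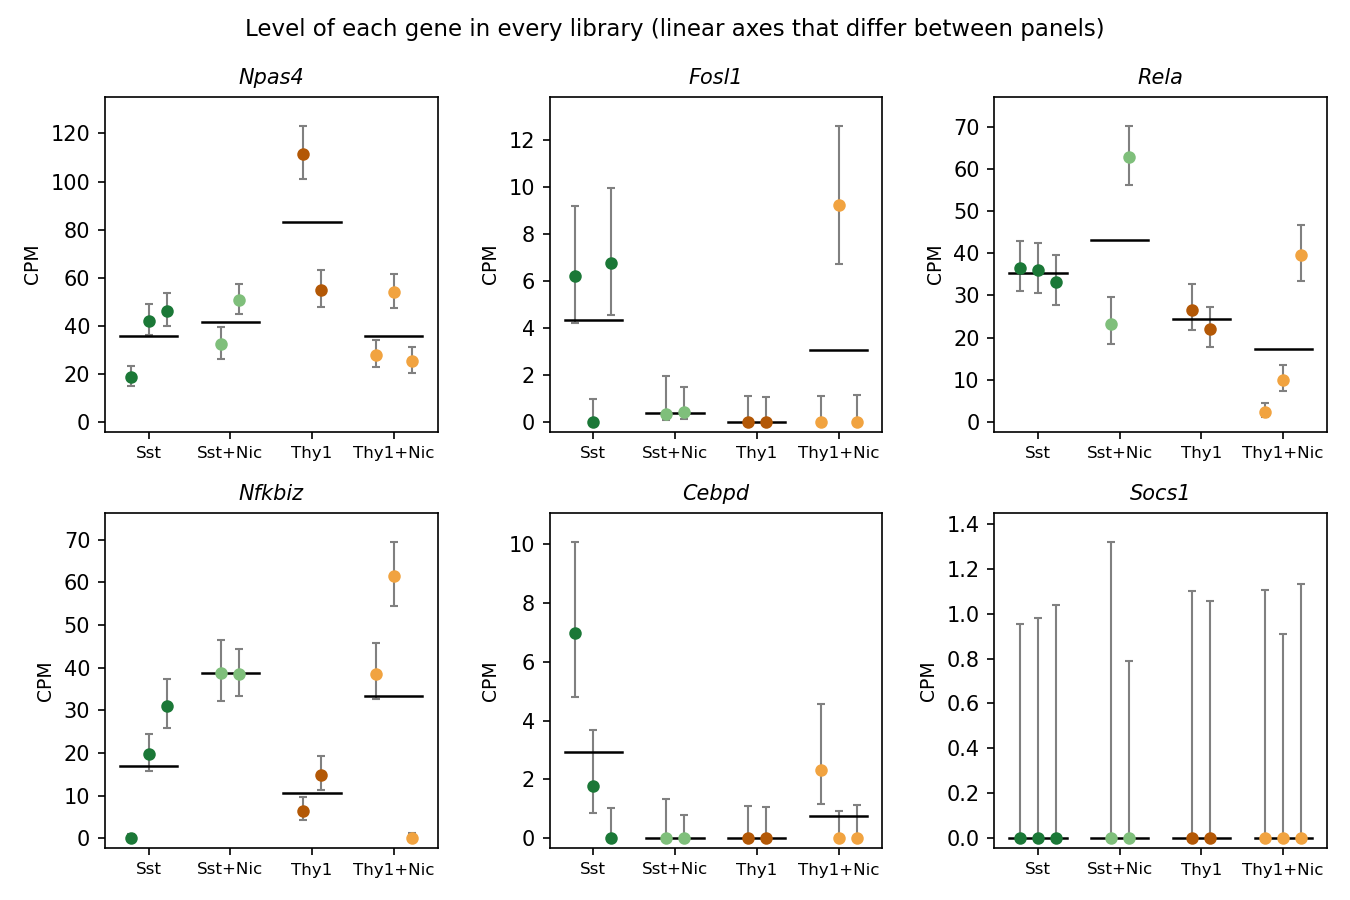
Level in CPM (vertical axes, linear, different in each panel) of the 6 genes in the 10 libraries of 4 groups. Points are libraries in the order of their replicate numbers, thin bars are 95% Wilson intervals and black lines are group means. Npas4 stands highest in the Thy1 libraries (54.9 and 111 CPM), Rela spreads widely in Sst+Nic and Thy1+Nic, Nfkbiz spreads most in Thy1+Nic, and Socs1 is at 0 throughout.

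Fosl1 encodes Fra-1, a Fos family partner of Jun proteins in the AP-1 dimer that appears later than c-Fos after a stimulus. It had counts in 5 of 10 libraries. Fosl1 lies on chromosome 19 (5447698 to 5455938, plus strand), and RefSeq gave no promoter for it in the table used. In Sst it had 25, 0 and 25 fragments in replicates 1, 2 and 3, or 6.22, 0 and 6.75 CPM, where the 0 allows up to 0.765 CPM. In Sst+Nic it had 1 and 2 fragments, and in Thy1 it had 0 in both libraries, which allows up to 0.859 and 0.824 CPM. In Thy1+Nic all of its 39 fragments, or 9.22 CPM, were in replicate 2. Levels above 1 CPM were thus found in 3 libraries, of both cell types and both treatments. Fosl1 was not called between Sst and Thy1 (adjusted p = 0.355, edgeR) nor for the interaction (adjusted p = 0.675, edgeR). The size of its fold is not interpreted, because it rests on groups at or near 0.

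The 3′ end of Fosl1 overlaps Ccdc85b (chromosome 19, 5453163 to 5457563) on the other strand, and the amplification kit does not keep the strand. Fragments of the overlap cannot be told apart, so the level of Fosl1 is uncertain. Ccdc85b had counts in all 10 libraries, from 32 to 301. Thy1+Nic replicate 2 held the most of both genes (301 and 39 fragments), whereas Sst+Nic replicate 3, next in Ccdc85b with 214, held 2 fragments of Fosl1. Sst replicate 3 held 25 fragments of Fosl1 beside 78 of Ccdc85b, and Thy1 replicate 2 held 0 beside 77.

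Rela encodes the RelA subunit of NF-kappaB, which carries the activation domain of the most common dimer. It lies on chromosome 19 (5637442 to 5648134, plus strand) and had counts in all 10 libraries, with a mean of 29.2 CPM. In Sst it was at 36.5, 36.0 and 33.2 CPM in replicates 1, 2 and 3. In Sst+Nic it was at 23.3 and 62.7 CPM in replicates 2 and 3, one below and one above every Sst library. In Thy1 it was at 26.6 and 22.0 CPM in replicates 2 and 3, below all Sst libraries. In Thy1+Nic it was at 2.30, 9.93 and 39.5 CPM in replicates 1, 2 and 3, a range from the lowest of all libraries to the second highest. The saline groups were thus narrow and the nicotine groups wide in both cell types, with means of 35.2 ± 1.79 CPM for Sst (SD, n = 3), 24.3 ± 3.31 for Thy1 (SD, n = 2), 43.0 ± 27.9 for Sst+Nic (SD, n = 2) and 17.2 ± 19.6 for Thy1+Nic (SD, n = 3). Whether the spread itself differed was not tested.

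Although Sst and Thy1 did not overlap for Rela under any of 4 scalings, the log2 fold change was 0.38 (standard error 0.54) and was not called (adjusted p = 0.863, edgeR). Without Thy1 replicate 3 it was 0.32 (standard error 0.80). With nicotine the difference between the cell types was 0.98 (standard error 1.06, adjusted p = 0.803, edgeR), and it was -0.12 without Sst+Nic replicate 3 and 2.26 without Thy1+Nic replicate 3. Over both treatments, Sst-neurons lay 18.4 CPM above Thy1-neurons within treatment (two-sided exact permutation test, p = 0.12, adjusted p = 0.6), and 17.2 CPM above without Thy1 replicate 3. Without Thy1+Nic replicate 3 it was 23.9 CPM (exact permutation test, p = 0.0167, the smallest that 60 arrangements allow, adjusted p = 0.167 over 10 tests), and with one library left out it ranged from 8.51 (without Sst+Nic replicate 3, p = 0.55, exact permutation test) to 28.2 CPM (without Sst+Nic replicate 2). The effect of nicotine was 0.12 (standard error 0.62) in Sst-neurons and -0.47 (standard error 1.02) in Thy1-neurons on the log2 scale. The latter was -0.51 without Thy1 replicate 3 and 0.039 without Thy1+Nic replicate 1, which held 8 fragments.

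Nfkbiz encodes IkappaB-zeta, a nuclear IkappaB protein that NF-kappaB induces and that joins it at secondary response genes. It lies on chromosome 16 (55811375 to 55838954, minus strand) and had counts in 8 of 10 libraries, with a mean of 24.9 CPM. In Sst it was at 0, 19.6 and 31.0 CPM in replicates 1, 2 and 3, where the 0 allows up to 0.746. In Sst+Nic it was at 38.8 and 38.5 CPM in replicates 2 and 3, above every Sst library. In Thy1 it was at 6.30 and 14.8 CPM in replicates 2 and 3. In Thy1+Nic it was at 38.6, 61.4 and 0 CPM in replicates 1, 2 and 3, where the 0 allows up to 0.884. Apart from that last library, with 0 fragments against 134 and 260 in the others of its group, every nicotine library was above every saline library.

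Nfkbiz averaged 16.9 ± 15.7 CPM in Sst (SD, n = 3) against 38.6 ± 0.154 with nicotine (SD, n = 2), and 10.6 ± 6.03 in Thy1 (SD, n = 2) against 33.3 ± 31.1 with nicotine (SD, n = 3). The log2 fold change with nicotine was 0.90 (standard error 1.53) in Sst-neurons and 1.81 (standard error 1.62) in Thy1-neurons, neither called (adjusted p = 1.00 in both, edgeR). In Thy1-neurons it was 2.72 without Thy1 replicate 3, 1.00 without Thy1+Nic replicate 2 and 2.39 without Thy1+Nic replicate 3, and its direction turned with limma voom (-0.37) and with the replicate block (-0.56). In Sst-neurons it was 0.33 without Sst replicate 1, 1.59 without Sst replicate 3 and 3.15 with limma voom. Within cell type, nicotine libraries lay 22.3 CPM above saline libraries on average (two-sided exact permutation test over 100 arrangements, p = 0.1, adjusted p = 0.6 over 10 tests), and 24.4 CPM above without Thy1 replicate 3. With one library left out it ranged from 15.2 CPM without Thy1+Nic replicate 2 (exact permutation test over 60 arrangements, p = 0.217, adjusted p = 0.571) to 30.6 CPM without Thy1+Nic replicate 3 (p = 0.0333, adjusted p = 0.167, exact permutation test). The fit over both cell types gave 1.37 (standard error 1.21, adjusted p = 1.00, edgeR), or 1.53 without Thy1 replicate 3, and its value was positive under every alternative, from 0.90 to 1.73. The gap between Sst+Nic and Sst closed when totals were scaled by TMM or set to uniquely mapped reads. Between the cell types the values were 0.54 (standard error 1.77) without nicotine, or 1.40 without Thy1 replicate 3, and -0.38 (standard error 1.48) with it. Their signs turned with the setting.

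Cebpd encodes C/EBP-delta, a bZIP factor of the acute phase response that inflammatory cytokines induce in many cell types, astrocytes among them. It lies on chromosome 16 (15887286 to 15889545, plus strand) and had counts in 3 of 10 libraries. In Sst it had 28, 7 and 0 fragments in replicates 1, 2 and 3, or 6.96, 1.79 and 0 CPM. Of the other 7 libraries only Thy1+Nic replicate 1 held any, with 8 fragments or 2.30 CPM. Both Sst+Nic and both Thy1 libraries were at 0, which allows up to 0.385 CPM over Sst+Nic and 0.421 over Thy1. It did not pass the filter of edgeR in any comparison and has no main test. Its 3′ end overlaps Spidr on the other strand (chromosome 16, 15889224 to 16146851), so its level is uncertain too. Spidr had 0 fragments in Sst replicate 1, the library with the most Cebpd, and 55 and 47 in the other libraries with Cebpd. It also had 60 in Sst+Nic replicate 3, 20 in Thy1+Nic replicate 2 and 1 in Thy1+Nic replicate 3, all without Cebpd.

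Socs1 encodes a suppressor of cytokine signalling that binds JAK kinases and blocks STAT activation by interferons. It lies on chromosome 16 (10783808 to 10785536, minus strand) and had 0 fragments in all 10 libraries. Per library this allows up to 0.615 to 1.03 CPM, and over the 37674061 fragments of all libraries up to 0.0796 CPM. A level below these limits was not detectable at this depth. Of the 891 checked entries in the stretches, 76.0% had a count in at least 1 library.

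Per kilobase of annotated exon, which allows levels of different genes to be compared, Npas4 had 11.2 CPM, Rela 9.51, Nfkbiz 4.96, Fosl1 1.13 and Cebpd 0.295 on average over 10 libraries. On this scale the mean of Rela was above that of Npas4 in Sst (11.5 ± 0.583 against 8.61 ± 3.59, SD, n = 3), though within the SD of Npas4. In Thy1 the mean of Npas4 was above that of Rela (20.1 ± 9.66 against 7.91 ± 1.08, SD, n = 2). The 3 genes detected in most libraries were compared in pairs across the 10 libraries, without a test. Pearson's r of log2(CPM + 1), given as a description over libraries that differ in depth, was 0.086 for Npas4 and Rela, 0.41 for Npas4 and Nfkbiz, and -0.39 for Rela and Nfkbiz. Among 491 checked entries, the pattern most like that of Npas4 was that of Gm3160 (r = 0.91), followed by Bbs1 (0.69) and Atp11a (0.67). For Rela these were Snx4 (0.91), Cdc42ep2 (0.87) and Robo1 (0.80), and for Nfkbiz they were Ehbp1l1 (0.95), Gm5510 (0.86) and Apod (0.76).

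The spread of the members between libraries was like that of other genes of their level. Npas4 had a coefficient of variation of 0.564 over 10 libraries, and the 113 checked entries within 1.5-fold of its mean had a median of 0.607. For Rela the values were 0.574 against 0.715, for Nfkbiz 0.809 against 0.729, for Fosl1 1.57 against 1.46 and for Cebpd 2.02 against 2.39. Of the 71 entries with a level like that of Nfkbiz, 15.5% were at 0 in at least 2 libraries as it was. For Cebpd, 70.0% of entries of like level were at 0 in at least 7 libraries.

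**Figure D2:**
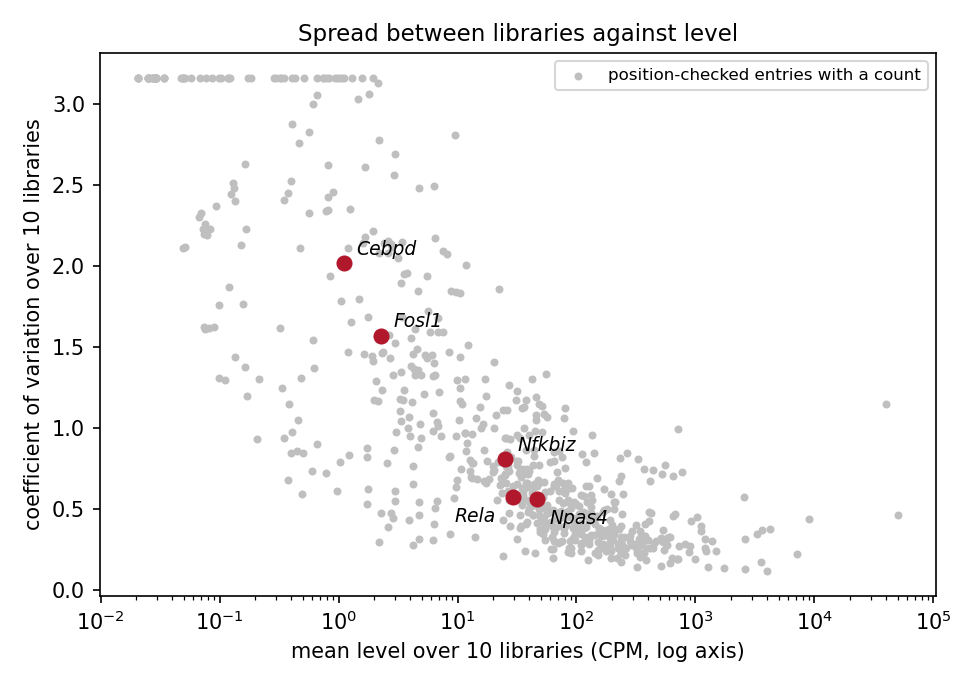
Coefficient of variation over 10 libraries (vertical axis) against mean level in CPM (horizontal axis, logarithmic) for the 677 checked entries with a count (grey) and 5 of the 6 genes (red). Socs1 has no count and no point, and the other genes lie among entries of their level.

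No member was called in any of the 7 comparisons, where 3 or 4 of the 6 could be tested. For nicotine in Sst-neurons 0 of 4 members were called, and 0% of the 6689 entries tested. In Thy1-neurons it was 0 of 3, and 0% of 6048 entries. Between Sst and Thy1 it was 0 of 4 members and 1.72% of 6350 entries, and between Sst+Nic and Thy1+Nic 0 of 3 and 0.507% of 6509. In the fits of all 10 libraries 0 of 4 members were called for the interaction, for cell type and for nicotine, against 0%, 4.62% and 0% of 8242 entries. Among checked entries, to which the members belong, the share called was 4.29% of 489 between Sst and Thy1, 1.79% of 504 between Sst+Nic and Thy1+Nic, 10.1% of 535 for cell type over both treatments and 0% in the other comparisons. At an unadjusted p under 0.05 edgeR gave 0 of the 26 member tests, DESeq2 2 and limma voom 1, with Npas4 between Sst and Thy1 in both. Over all entries and the 7 comparisons, such a p was found in 10.4%, 12% and 12.2% of tests. Of all entries between Sst and Thy1, 20.3% had such a p with DESeq2 and 18.4% with limma voom. Without a filter on low counts edgeR gave 4 of 35 member tests, against 7.19% of all tests in the 7 comparisons. Over all entries, an unadjusted p under 0.05 was found for 280 entries for nicotine in Sst-neurons, 264 in Thy1-neurons, 605 for the interaction and 340 for nicotine over both cell types. DESeq2 called 18, 14, 25 and 2 entries there, with no member among them.

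Groups that did not overlap in CPM were not rare in the table. Of entries with at least 10 fragments in 2 libraries, 20.8% did not overlap between Sst+Nic and Sst, where Nfkbiz was the member that did not, and 20.9% between Thy1+Nic and Thy1, where it was Npas4. Between Sst and Thy1, where Npas4 and Rela did not overlap, the share was 35.2%. Between Sst+Nic and Thy1+Nic every member overlapped, and the share was 38.8%.

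**Figure D3:**
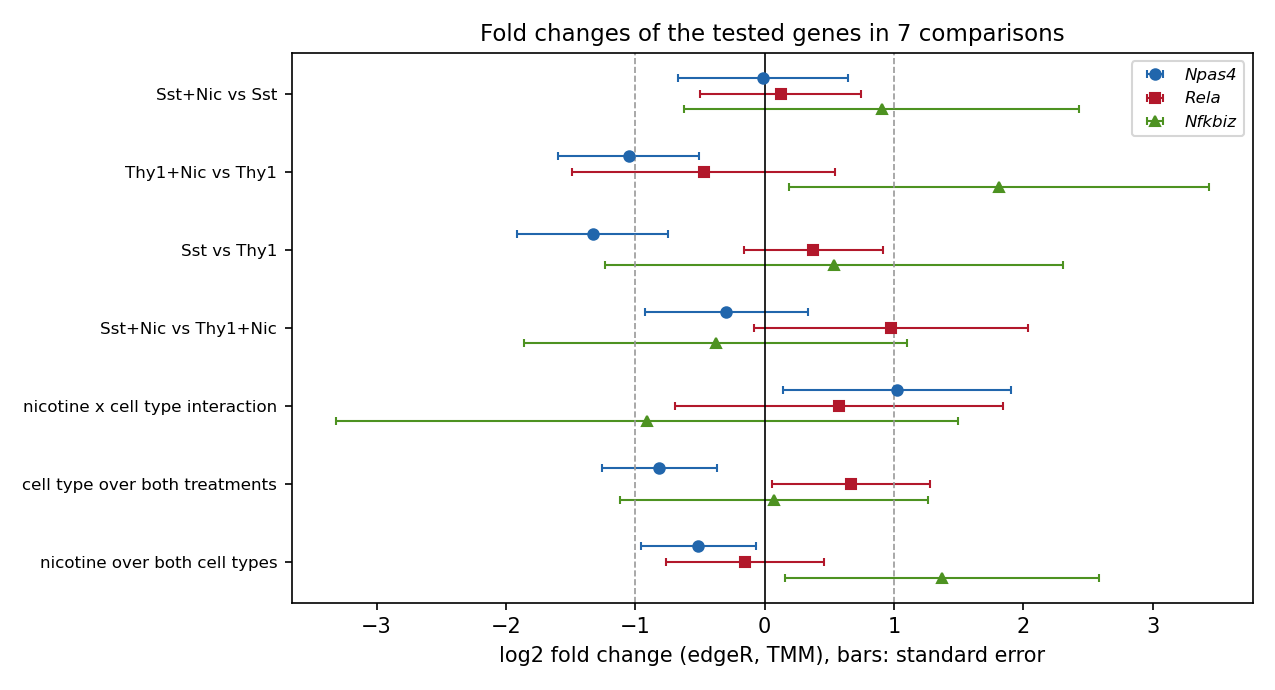
Log2 fold changes from edgeR (horizontal axis, bars are standard errors) of Npas4, Rela and Nfkbiz in the 7 comparisons, with dashed lines at -1 and 1. The value of Npas4 between Sst and Thy1 (-1.33) lies farthest from 0 for its error, and none was called.

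Other genes were drawn from lists of 131 genes, of which 18 lay in checked entries. Of these, 10 came from a broad list of 20 stress-responsive transcriptional regulators, not from the pathways described above. For nicotine, 0 of 17 tested in each cell type and 0 of 18 for the interaction or for nicotine over both cell types were called by edgeR. The median log2 fold change with nicotine was -0.10 in Sst-neurons and 0.25 in Thy1-neurons, beside 0.055 and -0.0030 over all entries. Between cell types over both treatments, 2 of 18 were called, with 1 higher (Bach1) and 1 lower (Bcl6) in Sst-neurons. Both are from the list of stress-responsive regulators. In that comparison 4.62% of all entries and 10.1% of checked entries were called. The median of the 18 was 0.44 beside 0.077 over all entries. In the NF-kappaB list, 8 of 33 genes were in checked entries (Rela, Nfkbiz, Il1rap, Ube2l3, Kat5, Litaf, Unc93b1 and Map3k11). Of these, 0 were called in any comparison, with 7 tested for nicotine in Thy1-neurons and 8 in each other comparison. Among the immediate early genes, Npas4 and Fosl1 were the only 2 of 45 in checked entries, and Fos, Arc and Egr1 were not among them. Cebpd was the only checked entry of the 7 C/EBP genes. Of 10 genes listed as Npas4 and CREB partners, Npas4 and Crebbp were in checked entries. Crebbp was at 96.9 to 282 CPM and was not called. Of 25 JAK-STAT genes, Socs1 and Ciita were in checked entries, and Ciita, the master regulator of MHC class II genes, had at most 8.27 CPM and was not called.

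Bcl6 encodes a zinc finger repressor that opposes NF-kappaB targets in immune cells and promotes neurogenesis in the cortex. It was at 8.70, 5.87 and 5.13 CPM in Sst, 2.06 and 4.71 in Sst+Nic, 175 and 103 in Thy1, and 68.2, 105 and 83.7 in Thy1+Nic. Between cell types, 35.2% of entries did not overlap without nicotine and 38.8% with it. The share over all 10 libraries was not computed. For Bcl6, every Sst and Sst+Nic library was below every Thy1 and Thy1+Nic library. On the log2 scale the difference was -4.56 ± 0.46 (SE) without nicotine (adjusted p = 0.00883, edgeR) and -5.08 ± 0.69 (SE) with it (adjusted p = 0.0326, edgeR). Without Thy1 replicate 2 the first had an adjusted p of 0.0538 (edgeR), and without Thy1 replicate 3 it was -4.84 (adjusted p = 0.0251, edgeR). The second was called in 1 of 5 fits that left out a library and was lost with limma voom (adjusted p = 0.0811) and with the replicate block (adjusted p = 0.0953, edgeR). Over both treatments it was -4.81 (adjusted p = 3.6e-05, edgeR), or -4.98 without Thy1 replicate 3, and was called in every fit.

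Bach1, a heme-sensing repressor of antioxidant genes, was higher in Sst-neurons, at 30.1 to 66.1 CPM in the 5 Sst and Sst+Nic libraries and 0.275 to 13.5 in the 5 Thy1 and Thy1+Nic libraries. Its log2 fold change over both treatments was 3.36 (standard error 0.83, adjusted p = 0.0339, edgeR), called in 4 of 10 fits without 1 library. Without Thy1 replicate 3 it was 2.68 (adjusted p = 0.0488, edgeR). Taken separately, Bach1 was not called with nicotine (1.97, adjusted p = 0.267, edgeR), nor under any alternative there. Without nicotine the main test did not call it either (4.96, adjusted p = 0.0848, edgeR, and 4.17 without Thy1 replicate 3). DESeq2 called it there (4.96, adjusted p = 5.4e-05) and limma voom did not (5.20, adjusted p = 0.164). It was also called with looser count filters (adjusted p = 0.00048 and 0.0204, edgeR) and with all groups fitted together (adjusted p = 0.030, edgeR). Other scalings (adjusted p = 0.0763 to 0.104, edgeR) and the replicate block (adjusted p = 0.166, edgeR) did not call it.

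**Figure D4:**
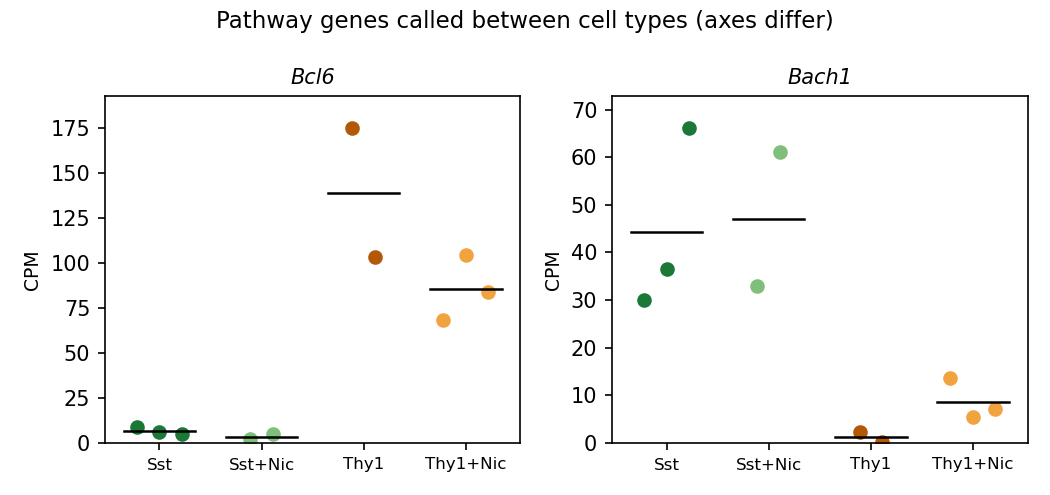
Level in CPM (vertical axes, linear from 0, different in each panel) of Bcl6 and Bach1 in the 10 libraries of 4 groups. Points are libraries and black lines are group means, and for each gene the Sst and Sst+Nic libraries lie on one side of the Thy1 and Thy1+Nic libraries. The share of all entries separated in this way was not computed.

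Markers of other cells were measured beside these genes, since microglia, vascular cells and astrocytes can also express them. Of 11 endothelial and mural genes, 9 were in checked entries, and their summed level was 55.1 to 136 CPM in Sst, 59.0 to 200.3 in Sst+Nic, 46.7 to 197 in Thy1 and 149 to 199.6 in Thy1+Nic. Adamts1, a secreted protease that is also on the list of stress-responsive regulators, and the collagens Col4a1 and Col4a2 made up 63.3% to 96.3% of the sum, and Adamts1 alone 79.3% of it in Sst+Nic replicate 3. The other 6 genes summed to 2.20 to 73.1 CPM. Among them, Cyyr1 was at 0 in every library, Cldn5, which seals the vessel wall, was at 0 in 6 of 10, and Mylk had 0 or 1 fragment in each Sst and Sst+Nic library and 3 to 190 in the Thy1 and Thy1+Nic libraries. Mylk was called lower in Sst-neurons over both treatments (adjusted p = 0.0374, edgeR) and in 3 of 10 fits without 1 library, and DESeq2 gave no p for it. Of 6 microglial genes, 3 (Hcls1, Cd86 and Cd200r1) were in checked entries, and their sum was 0 in 6 of 10 libraries and highest in Sst replicate 3, at 52.9 CPM. Cx3cr1, Csf1r and Aif1 were not in checked entries. The libraries with Cebpd, Sst replicates 1 and 2 and Thy1+Nic replicate 1, had microglial sums of 0, 0 and 16.1 CPM. In the same order, the other 6 endothelial and mural genes summed to 2.98, 37.7 and 73.1 CPM there. Elsewhere they reached at most 26.5 CPM, in Thy1+Nic replicate 3. The part of such cells in the levels of the 6 genes was not tested. In libraries of pooled cells, fewer cells that express a gene and less RNA per cell cannot be told apart.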

How the data were processed

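The authors amplified cDNA from hand-collected neurons, aligned paired-end reads to mouse GRCm38 with TopHat and deposited raw fragment counts per gene entry; the submitters' processing notes also name HTSeq. Strand was not kept by the kit. The table was used for 10 libraries; Sst+Nic replicate 1 and Thy1 replicate 1 were not analysed here. Groups came from the labels, and each mouse gave 1 library. The members and lists were chosen with earlier results of these data known, and other genes were named if they were called, if 5 or fewer of a list were measured, or if their pattern was among the 3 most like that of a member. The checked NF-kappaB genes, Cldn5, Cyyr1, Adamts1, Col4a1, Col4a2, Ccdc85b and Spidr were named outside this rule, after their values were seen. One gene was taken off the lists and is not reported here. Entries count as checked in the stretches of chromosomes 7, 8, 16 and 19 where counts followed the study's own group values for Sst and Thy1+Nic, a rule set after values were seen (891 entries). No library of Sst+Nic or Thy1 entered that comparison. On these chromosomes 2, 9, 42 and 12 genes, none of them a member, were compared, with medians of 99.2% to 100% of the group value; on chromosome 16 the range was 30.8% to 119%, and 17 of 47 values were within 1%.

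Counts were divided by the library total (CPM). The quasi-likelihood test of edgeR 4.0.16 (R 4.3.3) used TMM and filterByExpr with a minimum count of 10. Each comparison of 2 groups used their 5 libraries; the interaction, cell type and nicotine used all 10. Exact permutation tests kept the other factor fixed. Alternatives were DESeq2 1.42.0, limma voom 3.58.1, other scalings and filters, a replicate block and each library left out, which was added for the permutation tests after the data were seen. Positions, exons and promoters came from RefSeq GRCm38.p6 and GENCODE. Levels and permutations were computed in Python 3.11.15 (scipy 1.17.1, pandas 2.3.3, numpy 2.4.6).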

Additional observations from a re-analysis of the deposited data

How the results depend on the processing

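In 131 alternative fits of the 7 comparisons, 0 members were called, and the smallest adjusted p of a member was 0.197 (edgeR, Fosl1 between Sst and Thy1 without Sst replicate 2). Of 486 member fold changes under alternatives, 446 kept their direction and 40 did not; the cause was not tested. For nicotine in Sst-neurons, Npas4 turned to 0.12 with limma voom, 0.22 with totals, 0.017 with uniquely mapped reads and 0.095 with checked and mitochondrially encoded entries alone, and Rela to -0.0081 with limma voom. With limma voom Nfkbiz turned to -0.37 (Thy1+Nic vs Thy1), -1.30 (Sst vs Thy1), 1.90 (Sst+Nic vs Thy1+Nic) and 3.105 (interaction). With totals and no TMM, Nfkbiz and Npas4 both turned to 0.21 between Sst+Nic and Thy1+Nic, where this scaling moved the median of all entries from 0.086 to 0.59. With one library left out, where a lone library was assumed to vary like the other group, the ranges were -0.56 to 0.34 (Npas4) and -0.97 to 0.71 (Rela) for Sst+Nic vs Sst, -1.78 to 0.039 (Rela) for Thy1+Nic vs Thy1, -0.13 to 1.40 (Nfkbiz) for Sst vs Thy1, -0.95 to 0.49 (Nfkbiz), -0.84 to 0.24 (Npas4) and -0.12 to 2.26 (Rela) for Sst+Nic vs Thy1+Nic, -0.48 to 1.87 (Rela) for the interaction, -0.28 to 0.50 (Nfkbiz) and -2.01 to 5.56 (Fosl1) for cell type, and -2.76 to 4.31 (Fosl1) and -0.69 to 0.077 (Rela) for nicotine. Fitted values of Fosl1 depend on the prior count and are listed only to show how far they moved. Permuted differences in CPM for nicotine turned to 0.155 for Fosl1 with TMM and to -0.953, -0.327 and -1.85 for Rela without mitochondrially encoded genes, with uniquely mapped reads and with TMM; Nfkbiz turned to -2.18 for cell type with TMM. With one library left out they ranged from -1.97 to 0.332 (Fosl1) and -9.49 to 10.2 (Rela) for nicotine and from -2.52 to 12.8 (Nfkbiz) for cell type.

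Deviations from the group mean of same-numbered libraries in different groups correlated by -0.19 to 0.030. With 2 or 3 libraries per group, these values cannot show whether replicate numbers pair the mice. With the replicate block, Rela turned to -0.16 (Sst+Nic vs Sst) and -0.13 (interaction), Nfkbiz to -0.56 (Thy1+Nic vs Thy1), 2.08 (Sst+Nic vs Thy1+Nic) and -0.15 (cell type), and Fosl1 to -0.57 (nicotine); members called stayed at 0. Over all entries the block called 59 and 9 entries between cell types without and with nicotine, against 109 and 33 without it, and DESeq2 called 563 and 508.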
